A study of Mus musculus with 8 samples.

Results

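The 7 genes described here encode subunits of the NADPH oxidases, namely Cybb, Cyba, Ncf1, Ncf4, Rac1, Rac2 and Nox4. They were taken by symbol from a table of 55401 genes measured by bulk RNA-seq in tibialis anterior (TA) muscles, and each symbol matched 1 row. The 4 samples of mdx5cv TA muscle were compared with 4 of wild-type (WT) muscle, from mice all 6 mo old and all C57/Bl6, and the study's methods give males as the default sex. The mdx5cv mouse carries a germline mutation of Dmd, the gene of dystrophin, and is a model of Duchenne muscular dystrophy in which every cell carries the mutation. The labels give no treatment for either group, and the 2 groups shared their strain and age. The labels number the samples within each group, and since nothing states that each is a separate mouse, p-values measure the spread between these samples.

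An NADPH oxidase passes electrons from NADPH across a membrane to oxygen, which yields superoxide or hydrogen peroxide. In phagocytes the enzyme is a membrane pair of Cybb (gp91phox, the catalytic chain, also called NOX2) and Cyba (p22phox, its stabilising partner), and it is silent until cytosolic subunits, among them those encoded by Ncf1 and Ncf4, and a Rac GTPase join it. Nox4 is another catalytic chain that pairs with Cyba but is active without the cytosolic subunits, and it is known from fibroblasts, vascular cells and kidney. In skeletal muscle, oxidase activity has been assigned both to the myofibers and to the macrophages that enter damaged tissue.

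Values are normalized counts, that is, reads per gene divided by a size factor of the sample. Reads recovered from them totalled 13862559 to 14921057 in WT and 13175524 to 14502624 in mdx5cv muscles. Dmd was checked first and fell from 6954 ± 857 to 3964 ± 388 normalized counts (SD, n = 4 per group), by 0.81 on the log2 scale (limma, adjusted p = 0.000177). Markers of mature myofibers such as Ckm, creatine kinase of muscle, were abundant in all samples, in keeping with the tissue label. Of 13677 genes tested, 20.9% were called higher in mdx5cv muscles and 20.1% lower at an adjusted p under 0.05, and the median log2 fold change was 0.00. These were 2854 and 2743 genes, and with samples scaled to equal totals they were 5444 and 820, as that scaling moved the median of all genes to 0.36. A log2 fold change is the mdx5cv mean minus the WT mean of log2(normalized count + 1), which understates the change of low genes.

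Transcripts of 6 of the 7 subunits were higher in mdx5cv TA muscles, none was lower, and Rac1 did not pass the test. The same 6 genes also reached a log2 fold change of at least 1, a rule that 10.3% of all genes tested met in this direction. In each of the 6, every mdx5cv sample lay above every WT sample, a pattern seen in 20.3% of all genes tested. All 7 entered the test, but Ncf4 and Rac2 reached the required mean of 10 only through their mdx5cv level. A change in the number of cells of a type and a change in RNA per cell cannot be told apart in bulk muscle, for these and all values that follow.

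Cybb, the catalytic chain of the phagocyte oxidase, had the largest log2 fold change of the 7 with the pseudocount of 1. With a pseudocount of 0.1, edgeR or DESeq2, that of Ncf4 was larger, at 4.28, 4.15 and 4.22 against 4.06, 4.09 and 4.09 for Cybb. Its normalized counts in WT samples 1 to 4 were 27.5, 35.1, 28.7 and 14.8, and in mdx5cv samples 1 to 4 they were 422, 343, 306 and 731. The lowest mdx5cv muscle was thus far above the highest WT muscle, and mdx5cv sample 4 stood above the other 3. The mean rose from 26.6 ± 8.49 to 451 ± 193 (SD, n = 4 per group), a ratio of 17.0. The log2 fold change was 4.01 (SE 0.28, 95% interval 3.40 to 4.62, limma, adjusted p = 8.14e-07). Cybb (ENSMUSG00000015340) lies on the minus strand of the X chromosome at chrX:9435252-9487771 of GRCm38.

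Cyba encodes the membrane partner that both Cybb and Nox4 need to be stable. It was at 30.9, 13.2, 18.8 and 33.9 normalized counts in WT samples 1 to 4 and at 157, 113, 118 and 217 in mdx5cv samples 1 to 4. The groups did not overlap, and sample 4 was again the highest of the mdx5cv muscles. Its mean rose from 24.2 ± 9.84 to 151 ± 48.1, a ratio of 6.25, with a log2 fold change of 2.64 (SE 0.29, 95% interval 2.01 to 3.26, limma, adjusted p = 1.89e-05). Cyba (ENSMUSG00000006519) lies on the minus strand at chr8:122424776-122432930.

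Ncf1 encodes p47phox, the organizer that is phosphorylated on activation and then docks on Cyba. Its normalized counts were 8.02, 15.4, 11.1 and 22.2 in WT samples 1 to 4, against 135, 119.8, 111 and 243 in mdx5cv samples 1 to 4. No values were shared by the groups. The mean rose from 14.2 ± 6.17 to 152 ± 61.3, a ratio of 10.7, and the log2 fold change was 3.35 (SE 0.31, 95% interval 2.69 to 4.01, limma, adjusted p = 5.24e-06). Ncf1 (ENSMUSG00000015950) lies on the minus strand at chr5:134220053-134229625 and overlaps Gtf2ird2 on the other strand. Gtf2ird2 was at 64.5 ± 9.11 and 74.6 ± 10.96 normalized counts (log2 fold change 0.21, limma, adjusted p = 0.344). The libraries keep strand, but whether the counting used it is not given in the sources used here.

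Ncf4 encodes p40phox, which binds a phosphoinositide of the phagosome membrane and sustains the oxidase there. In WT samples it was at 3.44, 1.10, 1.11 and 3.18 normalized counts, which stand for 3, 1, 1 and 3 reads, and in mdx5cv samples it was at 41.7, 36.8, 26.1 and 59.1. Per length it was the lowest of the 7 in WT muscle, and every mdx5cv sample lay above it. The mean rose from 2.21 ± 1.28 to 40.9 ± 13.8, a ratio of 18.6, with a log2 fold change of 3.74 (SE 0.39, 95% interval 2.90 to 4.59, limma, adjusted p = 1.33e-05). The 8 WT and 187 mdx5cv reads gave a ratio of 18.9 between 9.38 and 44.3 (exact 95% interval, counting error only), so its fold is known less closely than that of Cybb, whose 96 and 2074 reads gave 17.4 between 14.2 and 21.6. Ncf4 (ENSMUSG00000071715) lies on the plus strand at chr15:78244801-78262580.

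Rac1 and Rac2 encode the small GTPases that switch the assembled complex on. Rac2 is largely limited to blood cells, whereas Rac1 is made by nearly every cell type and also serves the actin cytoskeleton. Rac2 was at 4.58, 9.87, 9.95 and 8.47 normalized counts in WT and at 54.7, 80.2, 39.6 and 123 in mdx5cv samples, with no overlap. Its mean rose from 8.22 ± 2.52 to 74.4 ± 36.5, a ratio of 9.05, with a log2 fold change of 2.96 (SE 0.35, 95% interval 2.21 to 3.70, limma, adjusted p = 3.07e-05). Rac2 (ENSMUSG00000033220) lies on the minus strand at chr15:78559167-78572783, on the same chromosome as Ncf4.

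Rac1 was at 1262, 807, 1114 and 1163 normalized counts in WT and at 1050, 1144, 1075 and 1072 in mdx5cv samples. The mdx5cv values lay inside the WT range. The means were 1087 ± 196 and 1085 ± 41.0, and the log2 fold change was 0.02 (SE 0.13, 95% interval -0.26 to 0.29, limma, adjusted p = 0.929). When samples were scaled to equal totals instead, Rac1 was called higher at a log2 fold change of 0.37 (limma, adjusted p = 0.0445), which is close to the shift of all genes under that scaling. Rac1 (ENSMUSG00000001847) lies on the minus strand at chr5:143503634-143528036 and overlaps Daglb on the other strand, which was at 255 ± 21.5 and 344 ± 45.7 normalized counts (log2 fold change 0.43, limma, adjusted p = 0.0125).

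Nox4, the catalytic chain that works without the cytosolic subunits, rose with a smaller log2 fold change than the other 5 that passed. It was at 33.2, 46.1, 54.2 and 25.4 normalized counts in WT and at 91.7, 84.9, 81.0 and 107.9 in mdx5cv samples. The groups did not overlap, and the spread within mdx5cv was narrow. The mean rose from 39.7 ± 12.9 to 91.4 ± 11.9, a ratio of 2.30, with a log2 fold change of 1.23 (SE 0.22, 95% interval 0.75 to 1.71, limma, adjusted p = 0.000762). Nox4 (ENSMUSG00000030562) lies on the plus strand at chr7:87246096-87398710.

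**Figure D1:**
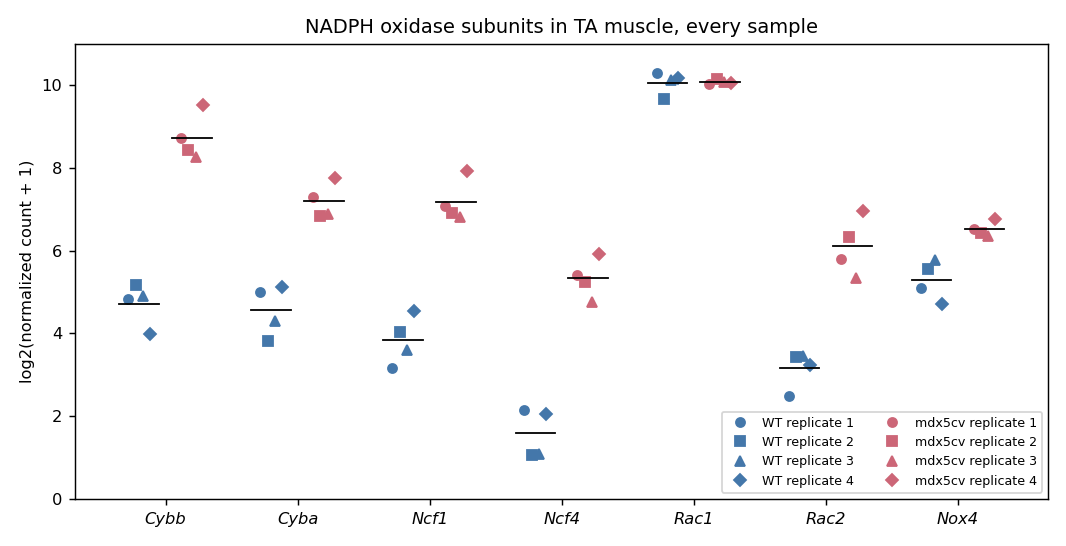
Log2(normalized count + 1) of the 7 oxidase subunits in each of 4 WT (blue) and 4 mdx5cv (red) TA muscles, where the marker shape gives the replicate number and the horizontal line the group mean. In 6 genes every mdx5cv point lies above every WT point, and in Rac1 the points overlap.

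**Figure D2:**
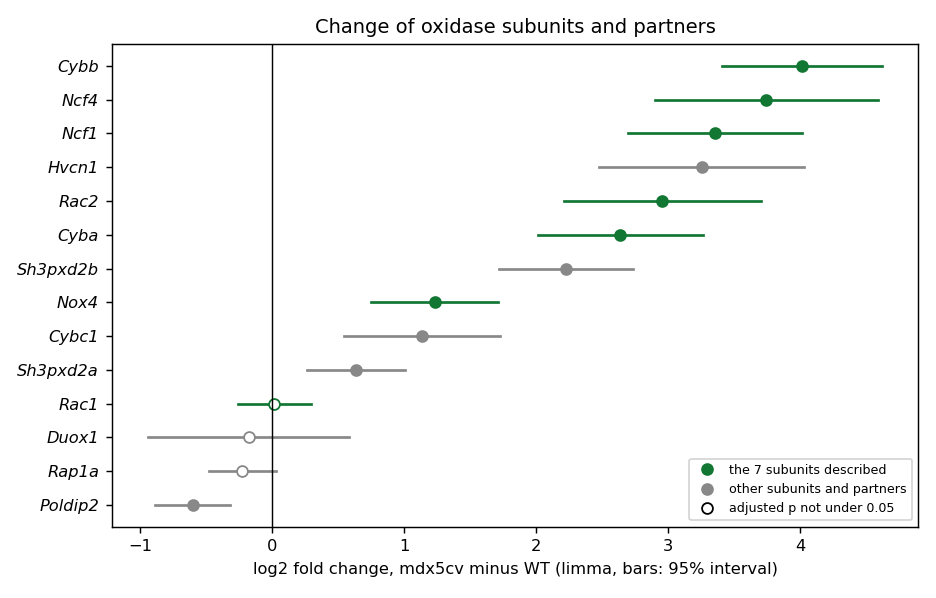
Log2 fold change (mdx5cv minus WT, limma) with its 95% interval for the 7 subunits (green) and the other subunits and partners that were tested (grey), where open circles mark an adjusted p not under 0.05. With the pseudocount of 1 used here Cybb stands highest at 4.01, Nox4 lies at 1.23, and the interval of Rac1 spans 0.

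Promoter sequences were read for the 4 subunits that matched the RefSeq promoter table of GRCm38.p6 (Cybb, Cyba, Ncf1 and Nox4), to show how the promoters of genes that rose together differ. Each entry holds 300 bases, 250 before the start site and 50 from it on. The last 60 bases before each start site follow, 5′ to 3′ on the strand of the gene, with each CpG in capitals. They are chrX:9469325-9469384 (minus strand), chr8:122432941-122433000 (minus strand), chr5:134229626-134229685 (minus strand) and chr7:87246589-87246648 (plus strand).
Cybb: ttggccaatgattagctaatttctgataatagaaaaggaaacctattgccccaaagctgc
Cyba: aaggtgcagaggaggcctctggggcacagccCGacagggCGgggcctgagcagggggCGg
Ncf1: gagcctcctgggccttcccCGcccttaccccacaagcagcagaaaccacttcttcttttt
Nox4: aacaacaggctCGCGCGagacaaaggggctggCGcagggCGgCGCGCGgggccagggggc
The Cybb stretch has no CpG and that of Nox4 is rich in it. Over the 300 bases, GC content was 35.3% with 1 CpG in Cybb, 60.7% with 9 in Cyba, 54% with 3 in Ncf1 and 68.3% with 24 in Nox4, beside medians of 52.7% and 7 over 32851 promoters. Only 3.98% of promoters had less GC than Cybb. The RefSeq start sites of Cybb and Nox4 lie inside the longer genes of GENCODE M21, so neither is the outermost annotated start of its gene.

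The core motif of PU.1, the ETS factor of the myeloid lineage (GAGGAA, both strands), and the ETS-IRF composite motif (GGAANNGAAA, both strands) were searched in the same 300 bases. Both matched only Cybb among the 4, on the opposite strand, at bases 10 to 15 and 4 to 13 from the start site, so that the matches overlap. The 30 bases around them are chrX:9469300-9469329 on the minus strand of GRCm38.p6, with the joined matches in capitals.
Cybb: gctgctgtTTTCATTTCCTCatcagaagaa
The first motif was present in 28.3% of all 32851 promoters and the composite in 2.72%. A match in letters is not a measured binding site, and a promoter without one may still be bound.

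Levels were compared between subunits only per length, as normalized counts per kb of merged exon. In WT muscles Rac1 was highest at 242 ± 43.6 per kb, and Cyba followed at 23.3 ± 9.47 (SD, n = 4). Nox4 at 4.69 ± 1.52, Cybb at 4.57 ± 1.46 and Ncf1 at 3.87 ± 1.68 came next, and the ranges of these 3 overlapped. Rac2 was at 2.65 ± 0.811, overlapping both Ncf1 and Ncf4, which was lowest at 1.09 ± 0.633. The ranges of Rac1, Cyba and the genes after them did not overlap. So the membrane partner Cyba was present at a higher level per length than either catalytic chain in WT muscle.

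In mdx5cv muscles the order per kb was Rac1 at 241 ± 9.12, Cyba at 146 ± 46.3, Cybb at 77.6 ± 33.3, Ncf1 at 41.6 ± 16.7, Rac2 at 24.0 ± 11.8, Ncf4 at 20.3 ± 6.82 and Nox4 at 10.8 ± 1.40. From Cyba to Ncf4, the range of each gene over its 4 samples overlapped that of the next, while Rac1 lay above Cyba and Nox4 just under Ncf4 without overlap. By merged exon, Nox4 moved from a level like that of Cybb to the lowest of the 7. With the length of the longest transcript in place of merged exons, Nox4 was at 10.1 in WT and 23.3 in mdx5cv per kb. Its rank by mean was the same, after Rac1 and Cyba in WT and lowest in mdx5cv. The gap in mdx5cv was lost, as its range then overlapped those of Rac2 (mean 24.48) and Ncf4 (mean 27.96). In WT its mean then lay above that of Cybb (5.59), though their ranges overlapped. The low place of Nox4 in mdx5cv thus depends on the length used.

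**Figure D3:**
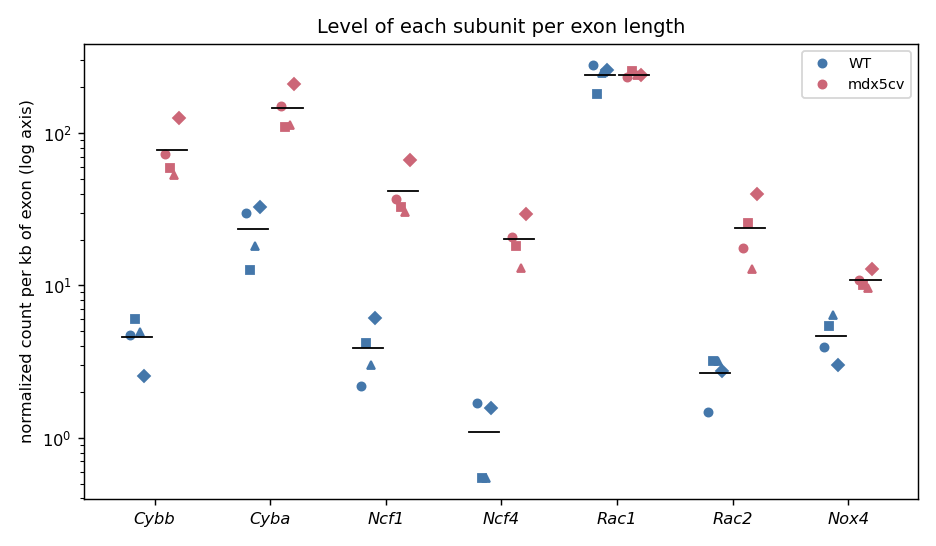
Normalized counts per kb of merged exon (log axis) of the 7 subunits in 4 WT (blue) and 4 mdx5cv (red) muscles, with marker shapes by replicate and lines at group means. Rac1 is highest in both groups, and Nox4 is level with Cybb in WT but the lowest of the 7 in mdx5cv.

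Whether subunits moved by unequal amounts was asked with log2 ratios within a sample, which do not depend on its size factor except through the pseudocount. Of 6 ratios tested by exact two-sided permutation over the 8 samples, 3 reached p = 0.0286, the smallest p that 4 against 4 samples allow, and each had an adjusted p of 0.0571 over the 6. None therefore passed 0.05 after adjustment. Nox4 minus Cybb went from 0.57 ± 0.29 in WT to -2.21 ± 0.38 in mdx5cv on the log2 scale (SD, n = 4), a difference of -2.78 with no overlap. Rac2 minus Rac1 went from -6.91 to -3.97, a difference of 2.94 with no overlap.

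Cyba minus Cybb differed by -1.37 between the groups, from -0.16 ± 1.06 in WT to -1.53 ± 0.17 in mdx5cv, also without overlap. Rac2 minus Cybb differed by -1.06 (exact permutation, p = 0.0571, adjusted p = 0.0857). Ncf1 minus Cybb differed by -0.66 (exact permutation, p = 0.143, adjusted p = 0.171) and Ncf4 minus Cybb by -0.27 (exact permutation, p = 0.629), and both overlapped. With a pseudocount of 10 in place of 1, all 6 ratios had an adjusted p of 0.0286 by the same exact permutation test, with the same signs. With 0.1 none passed. A pseudocount of 10 shrinks the change of low genes most. The log2 fold change of Ncf4 went from 3.74 to 2.03 under it, and that of Cybb from 4.01 to 3.61. The passes of low genes against Cybb are therefore not read as unequal change. Ncf4 minus Cybb turned to 0.22 with a pseudocount of 0.1 and to 0.14 without WT sample 4, and Ncf1 minus Cybb went to -0.18 without that sample.

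Among mdx5cv muscles, sample 4 was the highest in 6 of the 7 subunits and sample 3 the lowest in 5 of 7, whereas no WT sample was highest in more than 2. Without mdx5cv sample 4, the log2 fold changes were 3.75 for Cybb, 2.45 for Cyba, 3.10 for Ncf1, 3.55 for Ncf4, 2.67 for Rac2 and 1.15 for Nox4, and all 6 were still called higher. Sample 4 was also highest in the mean log2 level of the macrophage marker list, at 9.20 against 8.35, 8.24 and 8.05 in mdx5cv samples 1 to 3. In WT samples 1 to 4 that mean was 5.66, 6.35, 6.24 and 6.29. The macrophage list was not alone in this, as mdx5cv sample 4 was also the highest mdx5cv sample in other lists. These were the pan-leukocyte (9.32), fibroblast (10.98), smooth muscle cell and pericyte (9.18) and regenerating myofiber (9.79) lists. It was not the highest in the neutrophil, lymphocyte, endothelial cell and mature myofiber lists.

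Markers of several other cell types moved with the subunits, where 20.9% of all genes tested were called higher and 20.1% lower. Of 10 macrophage markers, 9 were called higher, and Cd163, a scavenger receptor of resident macrophages, was called lower at a log2 fold change of -1.49 (limma, adjusted p = 0.000131). The summed level of the 10 was 697 to 1052 in WT and 4583 to 10950 in mdx5cv samples. Lyz2 alone gave 196 to 298.7 and 2224 to 5328 of these sums. The 9 called higher ranged in log2 fold change from 1.15 for Mrc1 to 3.92 for Cd68. All 4 pan-leukocyte markers were called higher, with sums of 148 to 201.3 and 1204 to 2973, and Ptprc (CD45) had a log2 fold change of 3.31. Of 10 neutrophil markers, only the cytokine receptor gene Csf3r entered the test, through its mdx5cv level alone, and it was called higher at 2.88 (6.02 ± 2.73 in WT and 52.9 ± 29.3 in mdx5cv). The neutrophil sums were 4.58 to 14.3 and 29.7 to 98.3, of which Csf3r alone gave 23.4 to 91.9 in mdx5cv. S100a8 was at 1.39 ± 1.38 and 2.56 ± 2.34 and S100a9 at 1.91 ± 1.86 and 2.05 ± 0.94, with the defining genes Elane, Retnlg, Camp and Ngp at 0 in all 8 samples. None of 8 lymphocyte markers was abundant enough to be tested, and their sums were 4.42 to 16.5 and 24.1 to 48.0. The part of all these cells in the difference of the subunits was not tested.

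Set against the mean log2 level of the macrophage list, Cybb was 1.68 higher in mdx5cv than in WT, Ncf4 1.42 higher, Ncf1 1.02 higher and Rac2 0.63 higher, each without overlap of the groups (exact permutation, p = 0.0286, adjusted p = 0.0531 over 13 such ratios). Cyba differed from that list by 0.31 (exact permutation, p = 0.457). Set against the pan-leukocyte list, the differences were 0.86 for Cybb (exact permutation, p = 0.0286, adjusted p = 0.0531), 0.59 for Ncf4 (exact permutation, p = 0.2), 0.20 for Ncf1, -0.20 for Rac2 and -0.52 for Cyba. These values depend on the pseudocount where reads are few. With 10 in place of 1, the differences from the macrophage list were -0.15 for Ncf4, -0.05 for Rac2 and 0.54 for Ncf1, and those from the pan-leukocyte list were -0.87 for Ncf4, -0.78 for Rac2 and -0.19 for Ncf1, while Cybb was at 1.43 and 0.70. None of the 13 passed 0.05 after adjustment, and the macrophage list contains Cd163, which went the other way.

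For Nox4, the lists compared were those of endothelial cells, fibroblasts, and smooth muscle cells and pericytes. Over all genes tested, the shares called were 20.9% higher and 20.1% lower. All 6 endothelial markers were called lower, with sums of 2562 to 3117 in WT and 1579 to 2015 in mdx5cv samples. Of 6 fibroblast markers 5 were called higher and none lower, with sums of 5365 to 8125 and 17680 to 31690. Their log2 fold changes were unequal, at 3.13 for Col1a1, 3.09 for Col3a1 and 1.19 for Lum. Pdgfra was at 0.63, Dpt at 0.46, and Dcn, which was not called, at -0.24. Of 6 smooth muscle and pericyte markers, 3 were called higher and 3 lower. Nox4 was 1.98 higher against the endothelial list and 1.39 higher against the smooth muscle and pericyte list (exact permutation, p = 0.0286, adjusted p = 0.0531 for each). Against the fibroblast list it differed by -0.15 with overlap (exact permutation, p = 0.714). The mean of that list averages the large changes of the 2 collagens and smaller or opposite ones, so Nox4 did not match its markers 1 by 1. All 6 markers of regenerating myofibers were also called higher, among them Myh3, embryonic myosin, at a log2 fold change of 6.02, though Mymk and Chrng entered the test only through their mdx5cv level, and 3 of 7 markers of mature myofibers were called lower. The part of any of these cells in the level of Nox4 was not tested.

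**Figure D4:**
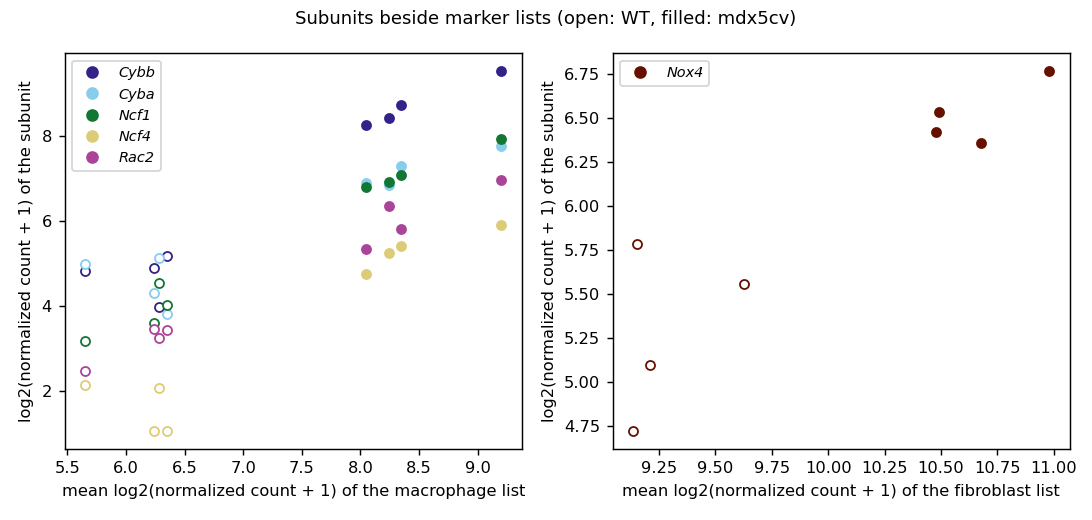
Left, log2(normalized count + 1) of 5 subunits against the mean log2 level of the macrophage marker list in each of 8 muscles. Right, Nox4 against the fibroblast list. Open circles are WT and filled circles mdx5cv, and the 2 groups are apart on both axes, with the highest mdx5cv point being sample 4 in both panels.

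Beyond the 7, a list of 15 other oxidase subunits and partners had 7 genes abundant enough to be tested. Of these, 4 were called higher and 1 lower, with a median log2 fold change of 0.63. The shares over all genes tested were 20.9% higher and 20.1% lower. Those higher included Hvcn1, the proton channel that balances the charge moved by the oxidase, at 3.25 (limma, adjusted p = 2e-05), which entered the test only through its mdx5cv level, and Sh3pxd2b, a podosome scaffold of the p47phox family, at 2.22 (limma, adjusted p = 1.47e-05). Cybc1, the chaperone needed for Cybb protein, was higher at 1.13 (limma, adjusted p = 0.00511), and Sh3pxd2a at 0.63 (limma, adjusted p = 0.0101) with overlapping groups. Poldip2, described as a partner of Cyba that supports Nox4 activity, was lower at -0.60 (limma, adjusted p = 0.00291). The other catalytic chains were low. Nox1 was at 1.95 ± 1.96 and 2.22 ± 1.17 normalized counts, and Nox3 had no read in any sample. Duox1, at 12.6 ± 3.57 and 11.2 ± 3.69, had a log2 fold change of -0.18 (limma, adjusted p = 0.718).

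Of 16 regulators of Rac, which load it with GTP, hold it in the cytosol or return it to the inactive state, 11 were called higher and 1 lower, with a median of 0.75. The exchange factor Vav1 of blood cells had a log2 fold change of 3.93, from 7.25 ± 8.23 to 81.4 ± 32.4 normalized counts (limma, adjusted p = 0.000477), and it too entered the test only through its mdx5cv level. Dock2, also a blood-cell exchange factor, was higher at 2.78, Tiam2 at 2.26 and Arhgap25, which inactivates Rac in phagocytes, at 2.01. Tiam1 was lower at -0.82 (limma, adjusted p = 0.0305), a call that was lost without WT sample 1, WT sample 4 or mdx5cv sample 3. Over all genes tested, 20.9% were called higher and 20.1% lower. With a log2 fold change of at least 1 also required, 7 of the 16 stayed higher, beside 10.3% of all genes tested. The transcript of Rac1 itself did not pass the test.

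Of 13 kinases and lipid enzymes that act in oxidase activation, 8 were called higher and 1 lower, with a median of 1.03. The shares over all genes tested were 20.9% higher and 20.1% lower. Pik3r5, a regulatory subunit of the lipid kinase PI3K gamma, was higher at 3.20, and its catalytic subunit Pik3cg at 2.02. Prkcb, a protein kinase C that phosphorylates p47phox, was higher at 2.52, and Syk, the kinase downstream of Fc receptors, at 2.40. Prkca, another protein kinase C, was lower at -0.55, from 1306 ± 156 to 889.5 ± 91.7 normalized counts (limma, adjusted p = 0.00182).

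Of 14 receptors upstream of the oxidase, 12 were tested, 11 were called higher and 1 lower, with a median of 3.11. The shares over all genes tested were 20.9% higher and 20.1% lower. Fcgr1, Itgam and C5ar1 reached the mean of 10 only through their mdx5cv level, so their mdx5cv mean had to lie above their WT mean. The filter did not set the size of that rise, and C5ar1 was at 9.03 ± 2.81 in WT. With 10 required in every sample, 4 receptors were called higher. Fcgr1, the high-affinity IgG receptor, was higher at 4.77 (limma, adjusted p = 1.39e-05), though its WT level rests on 6 reads in all. Clec7a, the beta-glucan receptor dectin-1, was higher at 4.14 and Itgb2, the common chain of the leukocyte integrins, at 3.73. Tyrobp, a signalling adapter of myeloid receptors, and Itgam, which pairs with Itgb2, were each higher at 3.49. Agtr1a, the angiotensin II receptor that is coupled to oxidases in vessels and muscle, was the 1 lower gene, from 36.0 ± 4.89 to 17.2 ± 5.07 normalized counts (log2 fold change -1.07, limma, adjusted p = 0.00539). The formyl peptide receptors Fpr1 and Fpr2 were too low to be tested.

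Of 7 enzymes that supply NADPH, 3 were called higher and 1 lower, with a median of 0.24. As 20.9% and 20.1% of all genes tested were so called, this count is not read as a result about the list. With a log2 fold change of at least 1 also required, 1 stayed higher. Those higher were Pgd at 1.25 and G6pdx at 0.96, both of the oxidative pentose phosphate pathway, and Tkt of its other arm at 0.75. Me1, malic enzyme, fell from 1304 ± 88.9 to 713 ± 120.4 normalized counts (log2 fold change -0.88, limma, adjusted p = 9.62e-05).

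Of 4 enzymes that remove superoxide or peroxide, 3 were called lower and 1 higher, with a median of -0.63. The shares over all genes tested were 20.1% lower and 20.9% higher. Cat, catalase, was lower at -0.96 and Sod2, the mitochondrial superoxide dismutase, at -0.79 (limma, adjusted p = 0.00109 for each). Sod1, the cytosolic enzyme, was lower at -0.48 (limma, adjusted p = 0.0163) with overlapping groups. Sod3, the secreted enzyme, was higher at 0.84, from 42.2 ± 12.98 to 74.9 ± 14.1 normalized counts (limma, adjusted p = 0.0081).

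The genes nearest to Cybb and Nox4 over the 8 samples were sought among the 7641 genes whose mean normalized count was 100 or more, by the root mean square difference in log2 level after each gene's WT mean was subtracted. For Cybb these were Postn, which encodes the matrix protein periostin, at 0.317, Clec7a at 0.353 and Cd84, a leukocyte surface receptor, at 0.377. For Nox4 they were Smc4, a condensin subunit, at 0.191, Gamt, which completes creatine synthesis, at 0.200 and H2-D1, a class I histocompatibility gene, at 0.202. The last belongs to a family of near-identical copies, so its count is uncertain. Clec7a reached the mean of 100 only through its mdx5cv level, at 10.8 ± 7.04 in WT and 204 ± 122 in mdx5cv muscles. The measure is set mostly by the difference between the groups and is given as a description.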

How the data were processed

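Total RNA was isolated from TA muscles with Trizol and made into stranded, rRNA-depleted libraries. The deposited table gives 1 signal for each gene and sample, which the authors made by scaling read counts with a size factor, and no gene is filtered out. The submitters' processing notes name Trim Galore 0.6.4, STAR 2.6.0c, featureCounts, DESeq2 1.26.0 and mm10, without role. The strand setting and annotation release are not given in the sources used here. Whole reads were recovered from all values (within 0.1 of a read), and 55141 of the gene IDs were in GENCODE M21, the source of the coordinates. The 2 groups follow the genotype labels. Replicates differed by more than sampling noise (chi-square per degree of freedom 9.56 to 43.2), so each counted as 1 sample.

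Groups were compared with limma 3.58.1 (R 4.3.3) on log2(value + 1), with a variance trend, two-sided, over the 13677 genes averaging 10 or more normalized counts, and Benjamini-Hochberg adjustment. A gene was called at an adjusted p under 0.05. edgeR 4.0.16 and DESeq2 1.42.0 on recovered reads, other pseudocounts, filters and scalings, a replicate block, and leaving out each sample were alternatives. Ratios were tested by exact permutation in scipy 1.17.1. The scripts were tested on simulated data. Promoters are RefSeq's. The members and gene lists were chosen with earlier results of these data known, so the lists give counts, not independent tests. Named are all 7 members, up to 4 genes of each list with the largest called change plus those a small count needs, and the 3 genes nearest to Cybb and to Nox4. A gene of the oxidase list is not reported here.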

Additional observations from a re-analysis of the deposited data

Results flagged for a closer look

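In 44 sets of 4 samples (the subunits, the ratios between them and the marker list means in each group), the highest or lowest sample stood apart by Dixon's criterion in 3, where chance would give about 2.2. Values are on the log2(normalized count + 1) scale. The mean of the macrophage list in WT sample 1 was 5.66, below 6.24 to 6.35 in the others. The mean of the neutrophil list in mdx5cv sample 1 was 0.736, below 0.984 to 1.02 in the others. The mean of the fibroblast list in WT sample 2 was 9.63, above 9.14 to 9.21 in the others.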

How the results depend on the processing

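The 6 subunits called higher kept their direction and their side of the threshold under each alternative in which they could be tested. Rac1 was called only with equal totals, at 0.37, a scaling that moved the median of all genes to 0.36, and its small value turned negative with edgeR, with DESeq2 and without WT sample 2 or mdx5cv sample 2. Over all alternatives, Cybb ranged from 3.61 to 4.36, Cyba from 2.24 to 2.99, Ncf1 from 2.72 to 3.69, Ncf4 from 2.03 to 4.28, Rac2 from 2.12 to 3.29 and Nox4 from 1.04 to 1.58, and Rac1 from -0.12 to 0.37. With 10 normalized counts required in every sample, 3 subunits were called higher, since Ncf1, Ncf4 and Rac2 left the test. Over all genes, equal totals gave 5444 higher and 820 lower genes in place of 2854 and 2743, and no filter gave 1912 and 1448.

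List counts moved as follows. Without a filter, higher calls were 2 for other oxidase subunits, 1 for NADPH supply and 0 for superoxide and peroxide removal, with 0 lower for other oxidase subunits and for Rac regulators and 1 for removal. With 10 required in every sample, 4 receptors were higher. Equal totals left 0 lower among other oxidase subunits, Rac regulators, kinases and receptors, and 5 NADPH enzymes higher. Without a variance trend, 0 Rac regulators were lower. With a log2 fold change of at least 1 also required, 7 Rac regulators, 1 NADPH enzyme and 0 removal enzymes were higher, and 0 genes were lower in the oxidase, Rac, kinase, NADPH and removal lists. Leaving out 1 sample gave 1 to 2 lower oxidase subunits (2 without WT sample 4), 0 to 1 Rac regulators, 1 to 2 kinases (2 without WT sample 2 or mdx5cv sample 3) and 1 to 2 NADPH enzymes (2 without WT sample 4). The cause of these moves was not tested. With a pseudocount of 10, ratios passed at -1.37 for Cyba to Cybb, -0.89 for Ncf1 to Cybb, -1.58 for Ncf4 to Cybb, 2.11 for Rac2 to Rac1, -2.55 for Nox4 to Cybb and -1.48 for Rac2 to Cybb. That pseudocount lowers the change of Ncf1, Ncf4 and Rac2, which have few reads in WT, more than that of Cybb. It thereby widens their ratios to Cybb.

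Same-numbered samples correlated by 0.050, 0.031, 0.072 and 0.146 in their deviations. The last was the largest of any WT and mdx5cv pair, while WT sample 1 correlated best with mdx5cv sample 2, at 0.074. Values this small do not decide whether same-numbered samples were paired, and the labels name no pairing. With a replicate block, 2880 genes were higher and 2736 lower, 6 subunits stayed higher, and Nox4 was at 1.23 (limma, adjusted p = 0.00181). Few reads limit the fold of Ncf4 most.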
